A study of Mus musculus with 7 samples.

Results

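The suppressor of cytokine signalling (SOCS) family was followed in tumours grafted from the pigmented mouse melanoma line B16F10, taken from mice given Zelnorm and from control mice. The family was taken as the rows of the gene count table named Socs1 to Socs7 and Cish, and all 8 were found among 21878 genes. The treated group held 4 tumours from Zelnorm-treated mice (libraries MBZ_9, MBZ_11, MBZ_13 and MBZ_15), which received 1.25 mg/kg by mouth every 2 days, and the control group held 3 tumours (NC_5, NC_6 and NC_10), for which the labels give no vehicle. All hosts were female C57BL/6J mice with an intact immune system, randomised once tumours could be felt, and their age is not given in the sources used here. Zelnorm is the trade name of tegaserod, an agonist of a serotonin receptor used for irritable bowel syndrome. The labels use the letters MBZ for this group without explaining them. The graft is an established line of the same strain, so reads of tumour and host cells cannot be told apart.

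SOCS proteins are the negative feedback arm of cytokine signalling. Cytokine receptors activate Janus kinases (JAKs), which phosphorylate STAT transcription factors, and STATs switch on SOCS genes whose products then bind the receptor or the kinase through an SH2 domain. A C-terminal SOCS box recruits elongins B and C and a cullin ubiquitin ligase, and SOCS1 and SOCS3 also block the kinase directly with a short inhibitory region. SOCS1 chiefly restrains interferon signalling, SOCS3 the signalling of interleukin 6 and related cytokines, CIS and SOCS2 that of STAT5-activating cytokines and growth hormone, and SOCS4 to SOCS7 have been linked mainly to receptor tyrosine kinases.

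The RefSeq promoter table (build GRCm38.p6) had entries for 4 members, Socs1, Socs3, Socs4 and Cish, each with the 250 bases before a start of transcription. They were searched on both strands for the STAT-binding letters TTCNNNGAA (gamma-activated site) and for GAAANNGAA, the core letters of the interferon-stimulated response element. The windows of Socs1 and Socs3 are shown, because these members held the only matches and have the largest fold change estimates in the comparison that follows. Capitals mark the matches, and the Socs3 window is cut where it meets a GENCODE exon.
Socs1: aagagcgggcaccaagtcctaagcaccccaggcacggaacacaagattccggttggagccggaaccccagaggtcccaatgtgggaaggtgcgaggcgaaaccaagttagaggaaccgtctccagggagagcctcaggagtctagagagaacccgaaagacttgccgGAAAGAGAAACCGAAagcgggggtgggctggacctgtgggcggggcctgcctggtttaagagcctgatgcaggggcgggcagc
Socs3: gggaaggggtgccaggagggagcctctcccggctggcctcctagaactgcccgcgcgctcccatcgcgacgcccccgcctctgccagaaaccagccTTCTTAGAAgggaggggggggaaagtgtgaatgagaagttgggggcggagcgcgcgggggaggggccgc
They lie at chr16:10785537-10785786 (Socs1, minus strand) and chr11:117969452-117969616 (Socs3, minus strand). The start used for Socs3 is not its outermost one, as the gene reaches 117970336 in RefSeq and 117970047 in GENCODE, so the Socs3 stretch lies inside the annotated gene. The Socs1 window held 2 overlapping matches to the interferon letters, GAAAGAGAA starting 83 bases and GAAACCGAA starting 77 bases before the start. The Socs3 window held 1 match to the STAT letters, TTCTTAGAA starting 154 bases before the start used by the table, and neither motif was found in the Cish and Socs4 windows. Of 32851 promoter windows of the same length, 7.02% held TTCNNNGAA and 7.13% held GAAANNGAA. These letters describe the windows only, and binding was not measured.

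The libraries held between 16903598 and 19666598 counts. Pigment cell markers were abundant, as the label of the graft implies, with summed levels of 33789 to 36169 CPM (counts scaled to the library size) in Zelnorm and 30656 to 34816 CPM in NC tumours, and each of the 10 markers was detected. Skeletal muscle transcripts varied widely, with sums of 7.37 to 372 CPM in Zelnorm and 5.76 to 43.3 CPM in NC tumours, and NC_5, MBZ_11 and MBZ_15 had the most. All 8 members passed the filter on low counts. Whether every library stems from a separate mouse is not stated in the labels, and p-values then measure the spread between these samples, and in bulk tissue a change in the number of cells of a type cannot be told apart from a change in RNA per cell.

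Within the family Socs1 had the largest difference, with about 2.06 times the NC level in Zelnorm tumours, Socs3 and Socs7 had ratios of 1.22 and 1.08, and the other 5 members had ratios of 0.987 to 1.04. No member passed the threshold of the test across all genes. With edgeR's quasi-likelihood test and Benjamini-Hochberg adjustment over 12997 genes, 0 of 8 members had an adjusted p under 0.05, where 4 genes in all (0.0308%) did. At an unadjusted p under 0.05, 2 of 8 members (Socs1 and Socs3) were higher, against 6.94% of all genes, and 0 were lower, against 3.38% (10.3% in either direction). DESeq2 called 1 member, Socs1, where it called 1.23% of 13367 genes higher. The median log2 fold change of the 8 members was 0.06, beside a median of 0.00036 over all genes tested. Of the 8 estimates 7 were above 0, as were 50.2% of all genes.

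**Figure D1:**
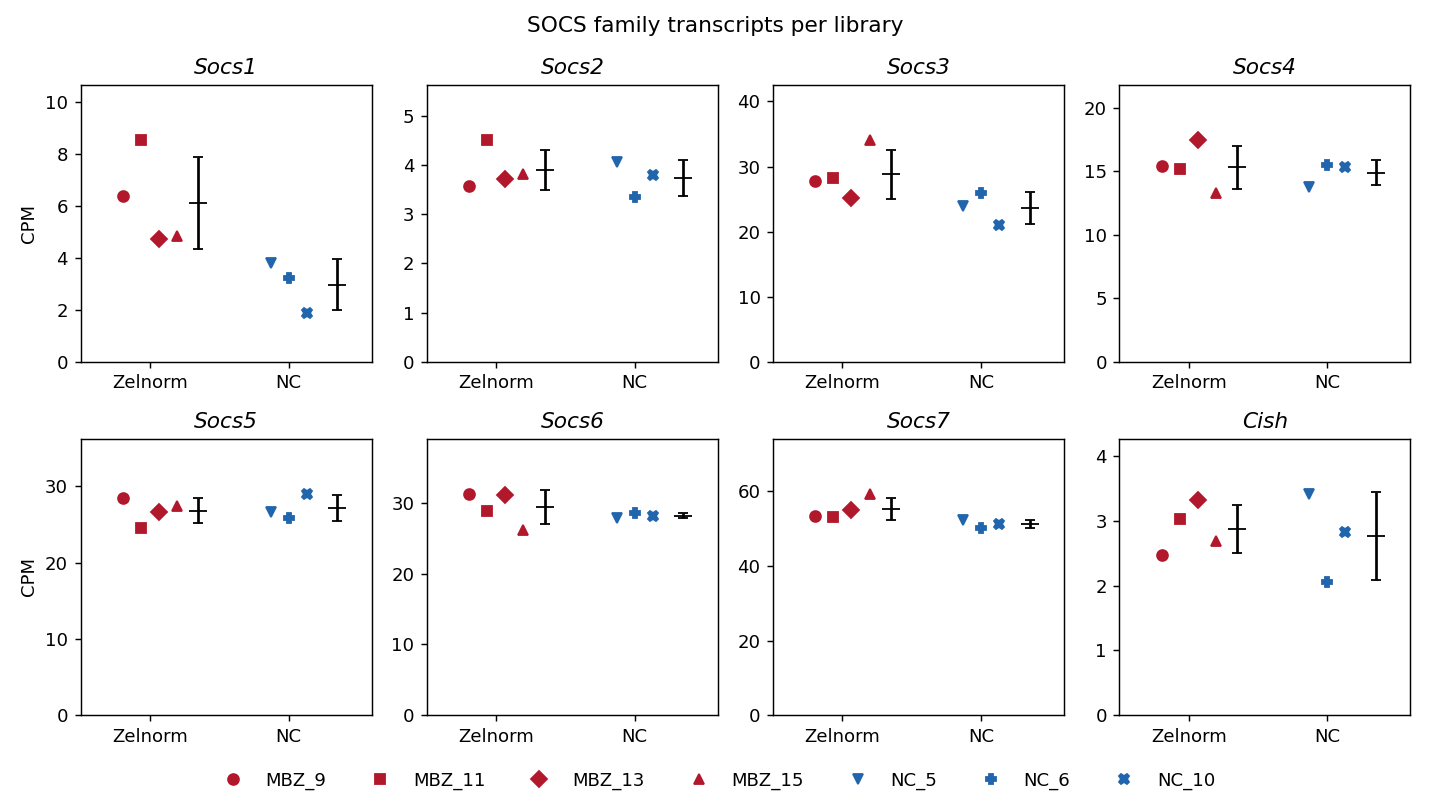
CPM (counts scaled to the library size) of each SOCS family gene in every library, Zelnorm (red) left of NC (blue), with the mean and SD of each group in black; each panel has its own axis from 0. Every Zelnorm library lies above every NC library for Socs1 (4.73 to 8.53 against 1.87 to 3.79 CPM) and Socs7. That is 2 of 8 members, against 5.33% of all genes, and the groups overlap for the other 6 genes.

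Socs1 (chromosome 16, 10783808 to 10785536, minus strand) encodes the inhibitor of JAK1, JAK2 and TYK2 that limits interferon responses. It had 6.39, 8.53, 4.73 and 4.83 CPM in MBZ_9, MBZ_11, MBZ_13 and MBZ_15, against 3.79, 3.23 and 1.87 CPM in NC_5, NC_6 and NC_10. All 4 Zelnorm libraries were above all 3 NC libraries, as in 5.33% of all genes (4.27% had every one below, among them 0 of the 8 members), with MBZ_11 the highest and NC_10 the lowest. The means were 6.12 ± 1.78 CPM in Zelnorm (SD, n = 4) and 2.96 ± 0.987 CPM in NC tumours (SD, n = 3). The log2 fold change was 1.04 ± 0.29 (SE), with a 95% interval from 0.40 to 1.69, which corresponds to a ratio of 2.06 (1.32 to 3.22). It ranked 247 by p among the 12997 genes (edgeR adjusted p = 0.234). DESeq2 gave 1.04 with an adjusted p of 0.0401, and an exact permutation test of log2 CPM gave a 2-sided p of 0.0571. That is the smallest 2-sided p this permutation test can give with 3 against 4 libraries. The counts behind these values were small, 84 to 144 in Zelnorm and 37 to 70 in NC libraries. Counting error alone corresponds to a coefficient of variation of 10.8% at the mean count, below the 29.1% seen among Zelnorm and 33.3% among NC libraries. The log2 fold change lay between 0.80 (without NC_10) and 1.26 (without NC_5) when each library was left out.

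Socs3 (chromosome 11, 117966079 to 117970336, minus strand) encodes the inhibitor that docks on gp130, the shared receptor chain of interleukin 6 type cytokines. It had 27.8, 28.3, 25.2 and 34.0 CPM in MBZ_9, MBZ_11, MBZ_13 and MBZ_15, against 24.0, 26.0 and 21.1 CPM in NC_5, NC_6 and NC_10. The groups overlapped, since MBZ_13 lay below NC_6, and MBZ_15 was the highest library. The log2 fold change was 0.29 ± 0.11 (SE), with a 95% interval from 0.04 to 0.53 (edgeR p = 0.0278, adjusted p = 0.411; exact permutation 2-sided p = 0.114). It was 0.19 without MBZ_15 (edgeR unadjusted p = 0.0846), 0.21 without NC_10 (0.112), and 0.17 (0.254) after removal of NC_5, MBZ_11 and MBZ_15, the muscle-rich libraries, an alternative chosen after seeing the data.

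Socs7 (chromosome 11, 97362292 to 97398542, plus strand), whose product has been linked to insulin signalling and to the adaptor NCK, was the most highly counted member. It had 53.3, 53.1, 55.0 and 59.2 CPM in MBZ_9, MBZ_11, MBZ_13 and MBZ_15, against 52.2, 50.2 and 51.1 CPM in NC_5, NC_6 and NC_10. Every Zelnorm library was above every NC library, as in 5.33% of all genes, but the gap between MBZ_11 and NC_5 was about 1 CPM. Its log2 fold change was 0.11 ± 0.06 (SE), with a 95% interval from -0.03 to 0.25 (edgeR p = 0.103, adjusted p = 0.582; exact permutation 2-sided p = 0.0571).

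The members most tied to STAT5, Cish and Socs2, had estimates near 0 with wide intervals. Cish (chromosome 9, 107296659 to 107302784, plus strand), an inhibitor induced by interleukin 2 and erythropoietin, had 2.47, 3.02, 3.32 and 2.69 CPM in MBZ_9, MBZ_11, MBZ_13 and MBZ_15, against 3.41, 2.06 and 2.83 CPM in NC_5, NC_6 and NC_10. The NC libraries enclosed all 4 Zelnorm libraries. Its log2 fold change of 0.05 had a 95% interval from -0.48 to 0.59, or ratios from 0.717 to 1.50, at a mean of 51.7 counts per library (edgeR adjusted p = 0.958). An antisense transcript and a pseudogene are annotated within Cish in GENCODE, and the strand setting of the counting is not given in the sources used here, so part of its count is uncertain. Socs2 (chromosome 10, 95383903 to 95417321, minus strand), which restrains growth hormone signalling, averaged 3.90 ± 0.414 CPM in Zelnorm (SD, n = 4) and 3.73 ± 0.364 CPM in NC tumours (SD, n = 3). Its log2 fold change of 0.06 had a 95% interval from -0.35 to 0.47 (edgeR adjusted p = 0.941).

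The remaining 3 members were measured more precisely. Socs4 (chromosome 14, 47276920 to 47296102, plus strand) and Socs5 (chromosome 17, 87107278 to 87137647, plus strand), a closely related pair linked to the epidermal growth factor receptor, averaged 15.3 ± 1.71 and 26.8 ± 1.63 CPM in Zelnorm tumours (SD, n = 4). In NC tumours they averaged 14.9 ± 0.984 and 27.1 ± 1.66 CPM (SD, n = 3). Their log2 fold changes were 0.04 (95% interval -0.20 to 0.28) and -0.02 (-0.19 to 0.15), the second being the only negative estimate of the family. Socs6 (chromosome 18, 88865169 to 88894364, minus strand), whose product binds the receptor KIT, averaged 29.3 ± 2.39 CPM in Zelnorm (SD, n = 4) and 28.2 ± 0.366 CPM in NC tumours (SD, n = 3). Its Zelnorm libraries, from 26.2 to 31.2 CPM, enclosed all 3 NC libraries, from 27.8 to 28.6 CPM, and the log2 fold change was 0.06 (95% interval -0.12 to 0.23). Processed pseudogenes are annotated within the Socs6 locus in GENCODE, and their part in its count was not measured.

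**Figure D2:**
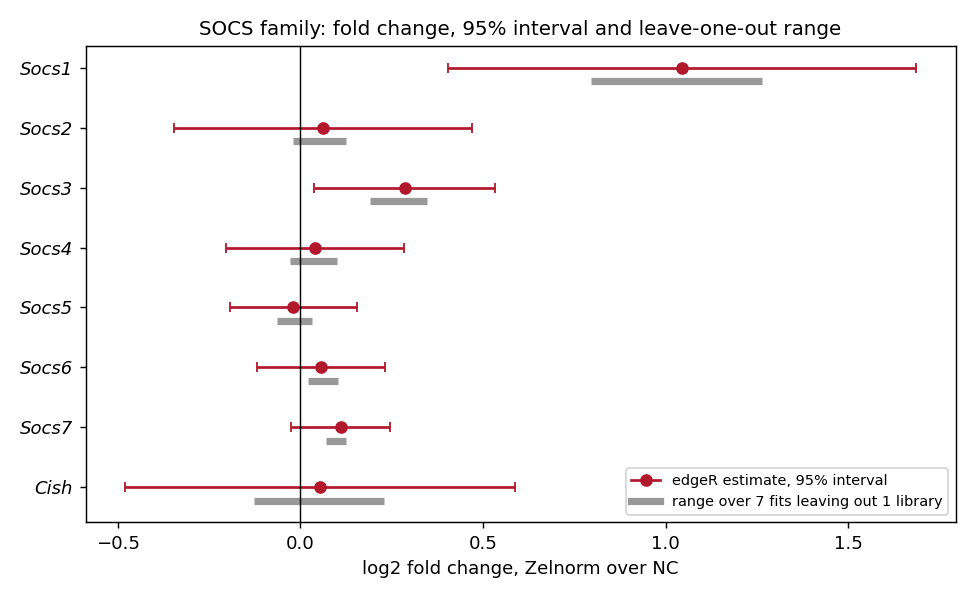
Log2 fold change (Zelnorm over NC) of each member from edgeR with its 95% interval (red), and the range over 7 fits that each left out 1 library (grey). The intervals of Socs1 (0.40 to 1.69) and Socs3 (0.04 to 0.53) lie above 0 before adjustment for 12997 genes, and those of the other 6 members include 0.

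Summed over the 8 members, the family took 169, 166, 167 and 171 CPM in MBZ_9, MBZ_11, MBZ_13 and MBZ_15, against 156, 155 and 153 CPM in NC_5, NC_6 and NC_10. The sums of the groups did not overlap and averaged 168 ± 2.34 CPM in Zelnorm (SD, n = 4) and 154 ± 1.23 CPM in NC tumours (SD, n = 3). Of the mean difference of 13.8 CPM, Socs3 made up 5.14, Socs7 4.03 and Socs1 3.15 CPM, and the other 5 members together 1.49 CPM. The difference in the sums was not tested. The share of Socs1 in the family sum was 2.81% to 5.14% in Zelnorm and 1.22% to 2.44% in NC libraries, whereas the share of Socs7, the largest, was 31.6% to 34.5% in Zelnorm and 32.4% to 33.5% in NC libraries.

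Levels of different members were compared per kilobase of exon, using GENCODE exons inside the RefSeq bounds of each gene. On this scale the order in Zelnorm tumours was Socs3, Socs7, Socs5, Socs6, Socs1, Socs4, Socs2 and Cish. Socs3 had 11.3 ± 1.46 CPM per kilobase in Zelnorm (SD, n = 4) and 9.28 ± 0.959 in NC tumours (SD, n = 3), and Cish had 0.954 ± 0.123 and 0.918 ± 0.225 in the same groups. Over the 7 libraries Socs3 ranged from 8.26 to 13.3 and Socs7 from 7.15 to 8.44 CPM per kilobase, so these neighbours overlapped. Socs5 (5.52 to 6.50), Socs6 (4.26 to 5.09), Socs4 (1.93 to 2.54), Socs2 (1.24 to 1.67) and Cish (0.684 to 1.13) followed in ranges that did not overlap each other. Socs1 ranged from 1.40 to 6.36 CPM per kilobase and so crossed the ranges of Socs5, Socs6, Socs4 and Socs2. Its place depends on the gene model, because GENCODE gives it 2908 exon bases of which 1340 lie inside the RefSeq bounds, and with the longer model it ranged from 0.643 to 2.93.

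**Figure D3:**
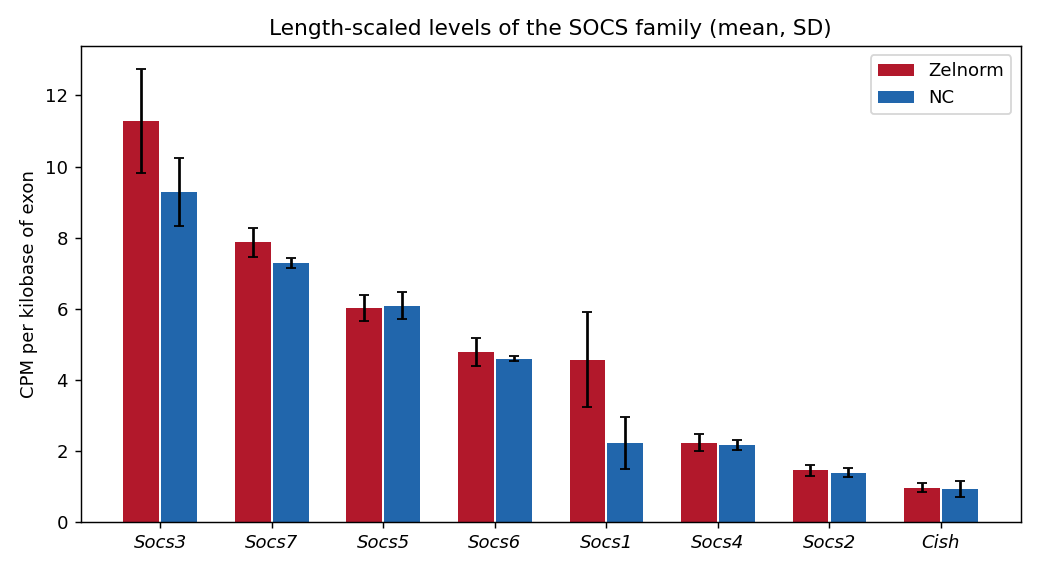
Mean level of each member in CPM per kilobase of exon, Zelnorm (red) left of NC (blue), with error bars for the SD; bars start at 0 and genes run from the highest to the lowest Zelnorm mean. Socs3 has the highest mean (11.3 in Zelnorm, 9.28 in NC), Cish the lowest, and Socs1 has the widest relative gap between the groups (4.56 in Zelnorm, 2.21 in NC).

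The machinery that SOCS proteins use and resemble was examined next. Of 9 subunits and partners of the SOCS box ubiquitin ligase, 7 were lower and 2 higher, with a median log2 fold change of -0.05, and 0 passed the adjusted threshold of edgeR. At an unadjusted edgeR p under 0.05 only Tceb1, the gene of elongin C, was lower (1 of 9, against 3.38% of all genes). It was at 72.0 ± 1.19 CPM in Zelnorm (SD, n = 4) and 81.3 ± 4.72 CPM in NC tumours (SD, n = 3). Its log2 fold change was -0.17 ± 0.06 (edgeR adjusted p = 0.334). Tceb2, the gene of elongin B, had -0.12 ± 0.06, and the scaffold gene Cul5 had 0.07 ± 0.09. Of 17 tested genes of other SOCS box proteins, 7 were higher and 10 lower (median -0.02). Among them Spsb2, an adaptor that targets inducible nitric oxide synthase, had 18.1 ± 1.13 CPM in Zelnorm (SD, n = 4) and 14.3 ± 1.88 CPM in NC tumours (SD, n = 3; log2 fold change 0.33, edgeR adjusted p = 0.316).

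Of 14 other inhibitors of JAK and STAT signalling, 9 were higher and 5 lower, with a median of 0.02. Those at an unadjusted edgeR p under 0.05 were Usp18 and Ptprc, both higher (2 of 14, against 6.94% of all genes). Usp18, which encodes an interferon-induced protease that blocks the type I interferon receptor, had 22.6, 16.6, 24.4 and 16.5 CPM in MBZ_9, MBZ_11, MBZ_13 and MBZ_15, against 15.5, 12.6 and 6.93 CPM in NC_5, NC_6 and NC_10. The groups did not overlap, NC_10 was lowest as for Socs1, and MBZ_13 was highest, unlike for Socs1. The log2 fold change of Usp18 was 0.78 ± 0.24 (SE, edgeR adjusted p = 0.296). Ptprc, which encodes the leukocyte phosphatase CD45, had 0.74 ± 0.19 (edgeR adjusted p = 0.202), while the phosphatase gene Ptpn6 had 0.15 ± 0.10 and the SUMO ligase gene Pias4 had -0.10 ± 0.07. DESeq2 gave adjusted p of 0.0557 for Usp18 and 0.0134 for Ptprc.

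Upstream of the family, 21 of 30 cytokine ligand genes were too rare to be tested. Ifng, a strong inducer of Socs1, had 6, 16, 3 and 3 counts in MBZ_9, MBZ_11, MBZ_13 and MBZ_15, against 5, 2 and 0 counts in NC_5, NC_6 and NC_10. The groups overlapped, as NC_5 had more counts than MBZ_13 and MBZ_15. Il6 had 1 to 5 counts in Zelnorm and 0 to 5 counts in NC libraries. Both genes had too few counts to compare, and Ifna4, Il4, Il21, Epo and Prl had 0 counts in all 7 libraries. Among the 9 tested ligands 8 were higher (median 0.34, 0.82 without NC_10, and 0.23 with a filter of 1 CPM in 3 libraries). Csf1, the macrophage growth factor, was at 27.5 ± 2.25 CPM in Zelnorm (SD, n = 4) and 18.2 ± 0.844 CPM in NC tumours (SD, n = 3). Its adjusted p was 0.0559 in edgeR and 5.67e-05 in DESeq2. Lif, a ligand of gp130, was at 1.30 ± 0.480 CPM in Zelnorm (SD, n = 4) and 1.44 ± 0.491 CPM in NC tumours (SD, n = 3).

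Of 32 tested receptor genes 30 were higher, with a median of 0.37, and 11 were higher at an unadjusted edgeR p under 0.05, against 6.94% of all genes. The median was 0.21 without NC_5, 0.58 without NC_10 and 0.19 with the leukocyte level as a covariate. Il10ra, the ligand-binding chain of the interleukin 10 receptor, had a log2 fold change of 0.93 ± 0.18 (edgeR adjusted p = 0.108), and Osmr, which pairs with gp130, had 0.54 ± 0.12 (edgeR adjusted p = 0.152). DESeq2 gave adjusted p of 0.00261 for Il10ra and 0.0279 for Osmr. The 4 Janus kinase genes were higher by small amounts (median 0.14), with Jak2 at 0.19 ± 0.08 and Jak1 at 0.09 ± 0.06. Of 6 STAT genes examined 5 were higher (median 0.19). Stat2 had 0.72 ± 0.12, with an adjusted p of 0.0646 in edgeR and 3.05e-05 in DESeq2. Its Zelnorm libraries were all above the NC libraries, as in 5.33% of all genes. Stat3 had 0.26 ± 0.08 (adjusted p of 0.308 in edgeR and 0.127 in DESeq2). Of the 6 genes, 2 were higher at an unadjusted edgeR p under 0.05, against 6.94% of all genes. The genes of the factors that drive Cish and Socs2, Stat5a and Stat5b, had 0.05 ± 0.07 and 0.12 ± 0.07, and Stat6 had -0.03 ± 0.06.

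Known targets of STAT3, STAT5 and STAT6, other than the SOCS genes, were set beside the members they share a factor with. Of 18 STAT3 targets 15 were higher, with a median log2 fold change of 0.19 beside the 0.29 of Socs3, and Fgl2 (1.21 ± 0.21) and Cebpd (0.77 ± 0.22) were among the 7 higher at an unadjusted edgeR p under 0.05, while Vegfa (-0.22) and Hif1a (-0.16) were lower at that level (all genes: 6.94% higher, 3.38% lower). Of 13 tested STAT5 targets 8 were higher, with a median of 0.06 beside 0.05 for Cish and 0.06 for Socs2. There Pim1 had 0.28 ± 0.12 and Cdkn1a -0.25 ± 0.11, on either side of 0. Of 9 tested STAT6 targets 7 were higher, with a median of 0.51, and NC_10 had the highest level of that list (3.60, mean log2 CPM, against 2.77 to 3.30 in Zelnorm libraries), the opposite of its place for Socs1. The STAT6 target median was 0.16 without NC_5, 1.10 without NC_10, 0.10 without the muscle-rich libraries and -0.19 with the leukocyte level as a covariate, so its direction depends on the fit. No member of these 3 lists passed the adjusted edgeR threshold, and the lists share some genes. DESeq2 called 1 STAT3 target, Fgl2 (adjusted p = 2.77e-05), 0 STAT5 targets and 1 STAT6 target, Tgm2 (adjusted p = 0.0134). It called 1.23% of all genes higher.

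**Figure D4:**
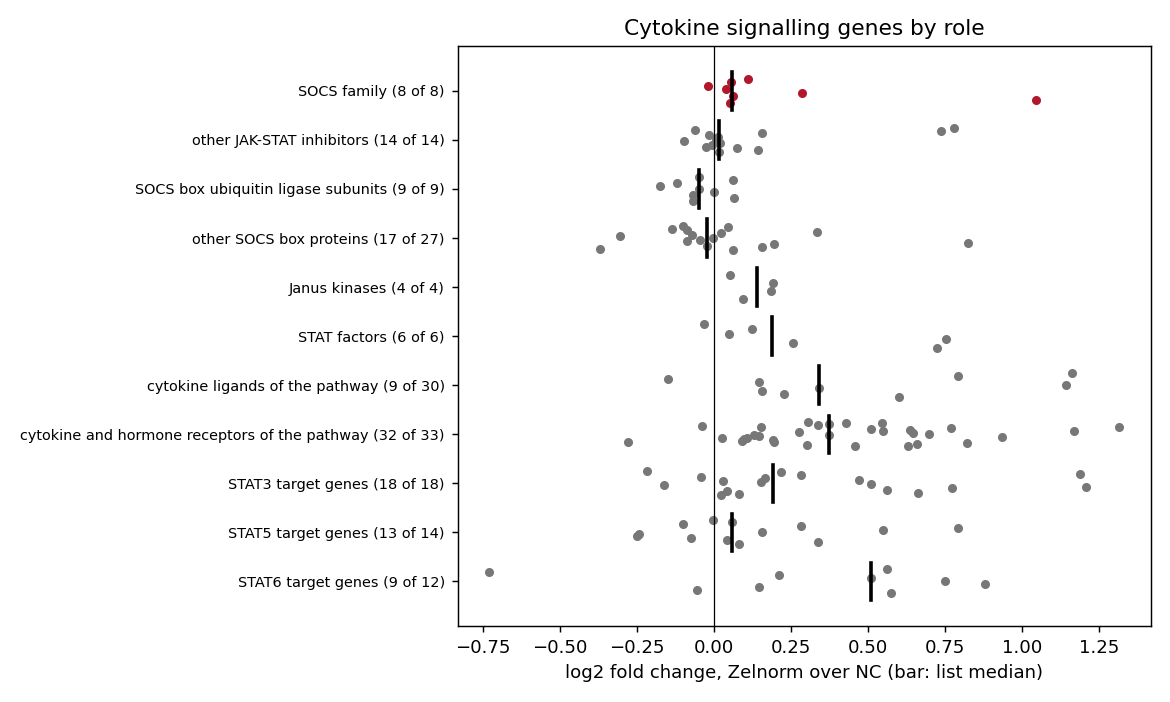
Log2 fold change (Zelnorm over NC) of every tested gene of 11 lists, with a black bar at the median of each list; the numbers in brackets are tested genes of listed genes, and SOCS members are red. The SOCS median lies near 0 (0.06) with Socs1 far to the right at 1.04.

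T cell markers, like Socs1, were highest in MBZ_11 and MBZ_9 and lowest in NC_10. This order was not particular to T cell markers. STAT factors had levels of 5.62 in MBZ_9, 5.54 in MBZ_11 and 5.07 in NC_10. MBZ_9 and MBZ_11 were likewise highest and NC_10 lowest for Janus kinases and for other JAK-STAT inhibitors. The level of T cell markers (mean log2 CPM of 11 genes, all 11 higher) was 1.50, 1.61, 0.62 and 0.51 in MBZ_9, MBZ_11, MBZ_13 and MBZ_15, against 0.50, 0.28 and -0.19 in NC_5, NC_6 and NC_10. The summed T cell markers were 20.3 to 36.3 CPM in Zelnorm and 12.6 to 18.7 CPM in NC libraries. Of the 11 genes, 3 were higher at an unadjusted edgeR p under 0.05, against 6.94% of all genes. Some had few counts, such as Cd5 with 10 to 41 in Zelnorm and 10 to 14 in NC libraries. Pan-leukocyte markers, with 15 of 15 genes higher, had sums of 587 to 835 CPM in Zelnorm and 527 to 624 CPM in NC libraries. Their level was also highest in MBZ_11 (4.74) and MBZ_9 (4.44). They did not place NC_10 lowest, as its level of 4.13 exceeded the 4.04 of MBZ_13. Macrophage markers, with 12 of 12 higher, summed to 492 to 716 CPM in Zelnorm and 257 to 510 CPM in NC libraries. Their level in NC_10, 4.84, was above the 4.80 of MBZ_9 and the 4.82 of MBZ_13, and NC_10 had the highest level of endothelial markers (4.85). With the leukocyte level as a covariate the log2 fold change of Socs1 was 0.83 (edgeR unadjusted p = 0.123) and that of Socs3 was 0.36 (0.0755). In that fit 0 of 8 members had an unadjusted edgeR p under 0.05, against 694 of all 12997 genes. Its covariate was the level of the pan-leukocyte markers alone, which were themselves higher in Zelnorm tumours, so the fit cannot separate cell content from treatment. The part of these cells in the Socs1 difference was not tested.

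For Socs3 the library that stood highest, MBZ_15, also had the highest level of fibroblast markers (5.70, mean log2 CPM of 10 genes), of skeletal muscle markers (4.65) and of STAT3 targets (5.25). All 10 fibroblast markers were higher, with sums of 1292 to 2507 CPM in Zelnorm and 727 to 1887 CPM in NC libraries. NC_10 combined a high fibroblast level (5.52) with the lowest Socs3. The part of these cells in the Socs3 difference was not tested.

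**Figure D5:**
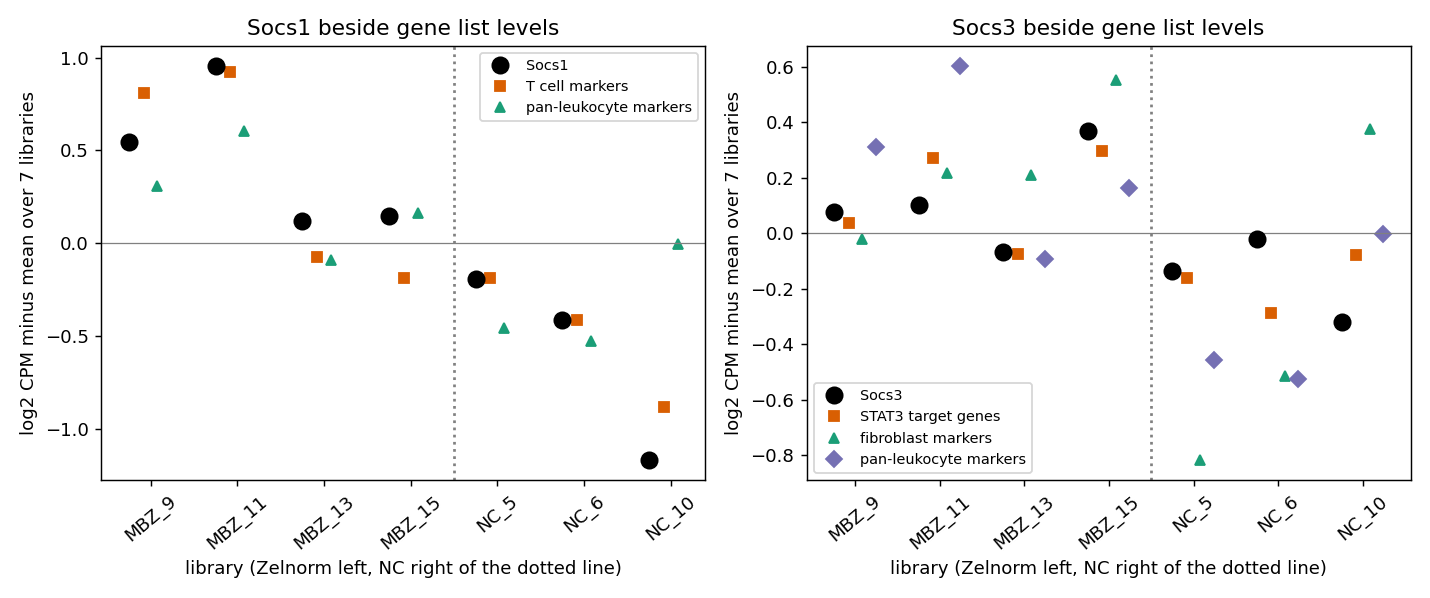
Log2 CPM of Socs1 (left) and Socs3 (right) in each library, centred on the mean over 7 libraries, beside the centred levels of gene lists; Zelnorm libraries lie left of the dotted line and NC libraries right of it. NC_10 is lowest for Socs1 and T cell markers but not for leukocyte markers, and MBZ_15 is highest for Socs3.

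The genes whose profile over the 7 libraries was most like that of Socs1, by the root mean square difference of centred log2 CPM among 11456 genes, were H2-K1 (0.138), Trim12a (0.142), H2-T23 (0.146), Tapbp (0.157) and Parvg (0.158), where the median gene differed by 0.648. H2-K1 and H2-T23 encode MHC class I heavy chains, whose reads can fit several near-identical genes, and Tapbp encodes tapasin, which loads peptide onto class I molecules. H2-K1 had 610, 704, 498 and 446 CPM in MBZ_9, MBZ_11, MBZ_13 and MBZ_15, against 321, 350 and 199 CPM in NC_5, NC_6 and NC_10. As for Socs1, MBZ_11 was highest, NC_10 was lowest and the groups did not overlap. The 5 genes were picked for likeness to Socs1 in these same libraries, so their order and fold changes are no separate result. These 5 genes had log2 fold changes of 0.81 to 1.08 and none passed the adjusted edgeR threshold. DESeq2 gave adjusted p of 0.0233 for H2-K1, 0.0189 for Trim12a and 0.0327 for H2-T23, below that of Socs1. It gave 0.286 for Tapbp and 0.0981 for Parvg.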

How the data were processed

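Messenger RNA was measured in 7 B16F10 grafts, 4 from Zelnorm-treated and 3 from control (NC) mice. Raw gene counts were deposited by the authors as 1 table, and per the labels' protocols the libraries came from a stranded TruSeq kit. HISAT2, HTSeq, Trimmomatic, Cufflinks and DESeq, and the builds GRCm38 and GRCh38, are named in the submitters' processing notes. Their versions, the annotation release and the strand setting are not given in these sources. Columns name the group of a library but no replicate number of the labels. For 27 genes whose symbols had become dates the symbol was restored from the gene identifier.

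Genes were kept by filterByExpr (12997 of 21878), scaled by TMM and compared with edgeR 4.0.16 (quasi-likelihood test, Benjamini-Hochberg adjustment at 0.05) in R 4.3.3. The SE was derived from the F statistic, and tests were tried on simulated data. List levels are means of log2 CPM with a prior count of 2. Exact permutation tests used all 35 splits. Library totals were 16903598 to 19666598 counts, and counting error is given for Socs1 and Socs2. No pair of libraries agreed within sampling noise (chi-square per degree of freedom of 6.53 to 20.9).

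Gene coordinates and promoters are from RefSeq, GRCm38.p6, and exon lengths from GENCODE M21. The 8 members, the 24 lists with 288 genes, and the tests were chosen with earlier results of these data known. Genes were named by rule: all members, up to 4 genes per list with the smallest p, the 5 nearest profiles to the 2 members that varied most, and the nearest genes on the chromosome. Ligands with few counts, some STAT and Janus kinase genes, some ligase subunits, Vegfa and Hif1a were named after their values were seen. Alternatives were RLE and upper quartile scaling, library totals, other filters, DESeq2 1.42.0, limma 3.58.1 voom, a robust fit, a leukocyte covariate and leaving out each library. Another gene and a list built on it are not reported here.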

Additional observations from a re-analysis of the deposited data

Results flagged for a closer look

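Of 90 sets of 4 Zelnorm values examined for a library far from the others, 1 stood apart, where chance gives about 1 in 20. It was Rmi2, the nearest tested gene on the upper side of Socs1 on chromosome 16, with 17.5 CPM in MBZ_15 and 20.3 to 20.5 CPM in the other Zelnorm libraries.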

How the results depend on the processing

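No paired analysis was possible because the columns carry none of the replicate numbers in the labels. Over 17 alternatives, 1 of them chosen after seeing the data, Socs1 stayed between 0.80 and 1.26 (log2 fold change) and Socs3 between 0.17 and 0.36. Socs1 passed the adjusted threshold with DESeq2 (1.04, adjusted p = 0.0401, 1 member called), and its adjusted p over the alternatives ran from 0.0401 to 0.999. Members near 0 changed sign. Socs2 was at -0.10 with the leukocyte covariate, and Socs5 was at 0.00082 without the 3 muscle-rich libraries. When each library was left out, Socs2 ranged from -0.020 to 0.125, Socs4 from -0.028 to 0.100, Socs5 from -0.063 to 0.031 and Cish from -0.127 to 0.229, and the median of the 8 members from 0.052 to 0.124. The number of members at an unadjusted p under 0.05 was 0 with the leukocyte covariate, 1 without the muscle-rich libraries, and 1 to 2 with each library left out (1 without MBZ_15, NC_5 or NC_10). Over all genes, edgeR called 34 without a filter, 21 in the robust fit, 0 with the leukocyte covariate (694 at an unadjusted p under 0.05) and 0 without the muscle-rich libraries (547), and 0 to 161 with each library left out, the extremes being NC_5 and NC_10. DESeq2 called 201. The cause of these shifts was not tested. Scaling moved the median of all genes by less than 0.01. Depth limits the precision of Socs2, where counting error (12.0%) exceeded the coefficients of variation in Zelnorm (10.6%) and NC (9.76%).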

Other observations

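The tested protein-coding genes nearest to Socs1 on chromosome 16 had estimates near 0. Clec16a, 38930 bases away on the lower side, had -0.02 ± 0.07 on the log2 scale (SE; adjusted p = 0.956 in edgeR), and Rmi2, a subunit gene of a complex that dissolves recombination intermediates and 49523 bases away on the upper side, had 0.02 ± 0.09 (adjusted p = 0.956 in edgeR). Over all 8 members, the 16 nearest tested genes had log2 fold changes from -0.16 to 0.12, and 0 of 16 had an unadjusted edgeR p under 0.05, against 10.3% of all genes.

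The member that varied most after Socs1 was Cish. The genes nearest to its profile over the 7 libraries were Leng1 (root mean square difference 0.0905), Slc27a1 (0.0981), Stoml1 (0.105), Hexdc (0.105) and Nat14 (0.106), where the median gene differed by 0.257. All 5 overlapped between the groups, as Cish did, and they were picked for likeness to it. The ratio of Socs1 to Socs3 counts was 0.142 to 0.301 in Zelnorm and 0.0887 to 0.158 in NC libraries, which overlapped between MBZ_15 and NC_5.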
